A study of Mus musculus with 20 samples.

Results

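Plasma cells, the antibody-secreting end stage of the B lineage, were followed through 8 genes in the bone marrow of mice expressing human U2AF1(WT) or U2AF1(S34F) and infused with vehicle or sudemycin D6. The genes were *Sdc1*, *Xbp1*, *Prdm1*, *Irf4*, *Igj*, *Mzb1*, *Tnfrsf17* and *Pou2af1*. They were taken by name from the 37620 genes of the count table, with no threshold on their values but with earlier results of these data known, and all 8 were found by their Ensembl identifiers. *Mzb1* carries its older symbol 2010001M09Rik there. In addition, 17 splice junctions inside *Xbp1* were examined among the 554616 junctions of the junction table.

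The marrow came from 20 recipient mice in 4 groups of 5, namely U2AF1(WT)/rtTA with vehicle, U2AF1(WT)/rtTA with sudemycin D6, U2AF1(S34F)/rtTA with vehicle and U2AF1(S34F)/rtTA with sudemycin D6. All recipients carried engrafted transgenic donor marrow, wore a jugular catheter and ate chow with 625 ppm doxycycline for 7 days, which switches the rtTA-dependent transgene on, and infusions filled the last 5 days. Sudemycin D6 is a spliceosome modulator that acts on SF3B1, and U2AF1 is the splicing factor that reads the AG at the 3′ end of introns. The U2AF1(WT) mice controlled for transgene overexpression, donor marrow from several mice was pooled before transplantation, and recipients were irradiated congenic F1 mice, so host plasma cells that survived irradiation may have remained. Age is not given for each mouse.

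Genotype could not be separated from sex-linked expression in these mice. The count of *Xist*, the RNA that silences one X chromosome in female cells, lay between 39145 and 78640 per U2AF1(WT) mouse but was only 1 to 8 per U2AF1(S34F) mouse. Counts summed over 4 Y-linked genes were 0 to 4 and 10270 to 15034, respectively. Every difference between genotypes given here is therefore a difference between mice that also differ in these transcripts, and the contributions of genotype and sex cannot be told apart. Values by mouse follow ascending replicate number. Gene counts summed to between 41145892 and 62138138 per mouse. All mice of a group are separate samples, and no within-group pair had counts that agreed within sampling noise.

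When a B cell becomes a plasma cell, IRF4 and PRDM1 (BLIMP-1) switch off the B cell program, and XBP1 enlarges the endoplasmic reticulum (ER) for secretion. XBP1 is made as an active factor only after the ER stress sensor IRE1 cuts 26 bases out of its messenger RNA in the cytoplasm, which shifts the reading frame. Plasma cells then settle in the bone marrow, where they depend on survival signals such as APRIL, received through TNFRSF17 (BCMA). None of the 8 genes is limited to plasma cells: IRF4 and POU2AF1 also work in B cells, SDC1 (CD138) is found on epithelial cells and early B cells, and XBP1 is made in many cells of the marrow.

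*Xbp1* lies on the plus strand of chromosome 11 (mm9, 5420662 to 5425896). Its exon 4 is shown because it holds the bases that IRE1 removes, printed in capitals (chr11:5424285-5424310 within the exon at chr11:5424242-5424387, both coding sequence).
Xbp1 exon 4: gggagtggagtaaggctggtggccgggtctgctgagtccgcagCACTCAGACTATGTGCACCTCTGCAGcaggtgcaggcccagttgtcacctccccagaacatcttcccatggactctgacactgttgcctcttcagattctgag
The last intron of *Xbp1* joins exon 4 to exon 5, and 3 acceptors took more than 1% of the reads of the exon 4 donor in at least 1 group. Each is shown as the 20 bases before the cut and the first 3 bases after it, with the 3 bases that end the intron in capitals.
annotated acceptor, chr11:5424668-5424690: ttgtgttttgcctcttgTAGtct
acceptor 67 bases into exon 5, chr11:5424735-5424757: tttcaaatgtccttcccCAGagt
acceptor 145 bases into exon 5, chr11:5424813-5424835: agcctccctttctctgtCAGtgg
The annotated acceptor has T as the base before AG, and both acceptors inside exon 5 have C there. Their shares in each group are given with the junction results.

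Levels differed widely among the 8 genes. Per kb of exon, *Igj*, the J chain that joins IgM and IgA into polymers, was the most abundant at 151 ± 54.7 CPM per kb, where CPM is a count scaled to library size (mean ± SD over 20 mice), followed by *Xbp1* at 49.8 ± 5.76. *Mzb1*, an ER chaperone of antibody assembly, had 6.81 ± 2.30 and *Pou2af1*, the B cell coactivator OBF-1, 4.39 ± 2.49. *Irf4* had 2.81 ± 1.28 CPM per kb and *Sdc1* 1.67 ± 0.512. *Tnfrsf17* at 0.658 ± 0.247 and *Prdm1* at 0.623 ± 0.199 were lowest, and these did not differ beyond their spread. *Tnfrsf17* rested on only 12 to 58 counts per mouse, so its changes were the least precise. The levels below are CPM scaled by TMM, a normalization that equalizes libraries on the bulk of genes, and changes are log2 fold changes.

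**Figure D1:**
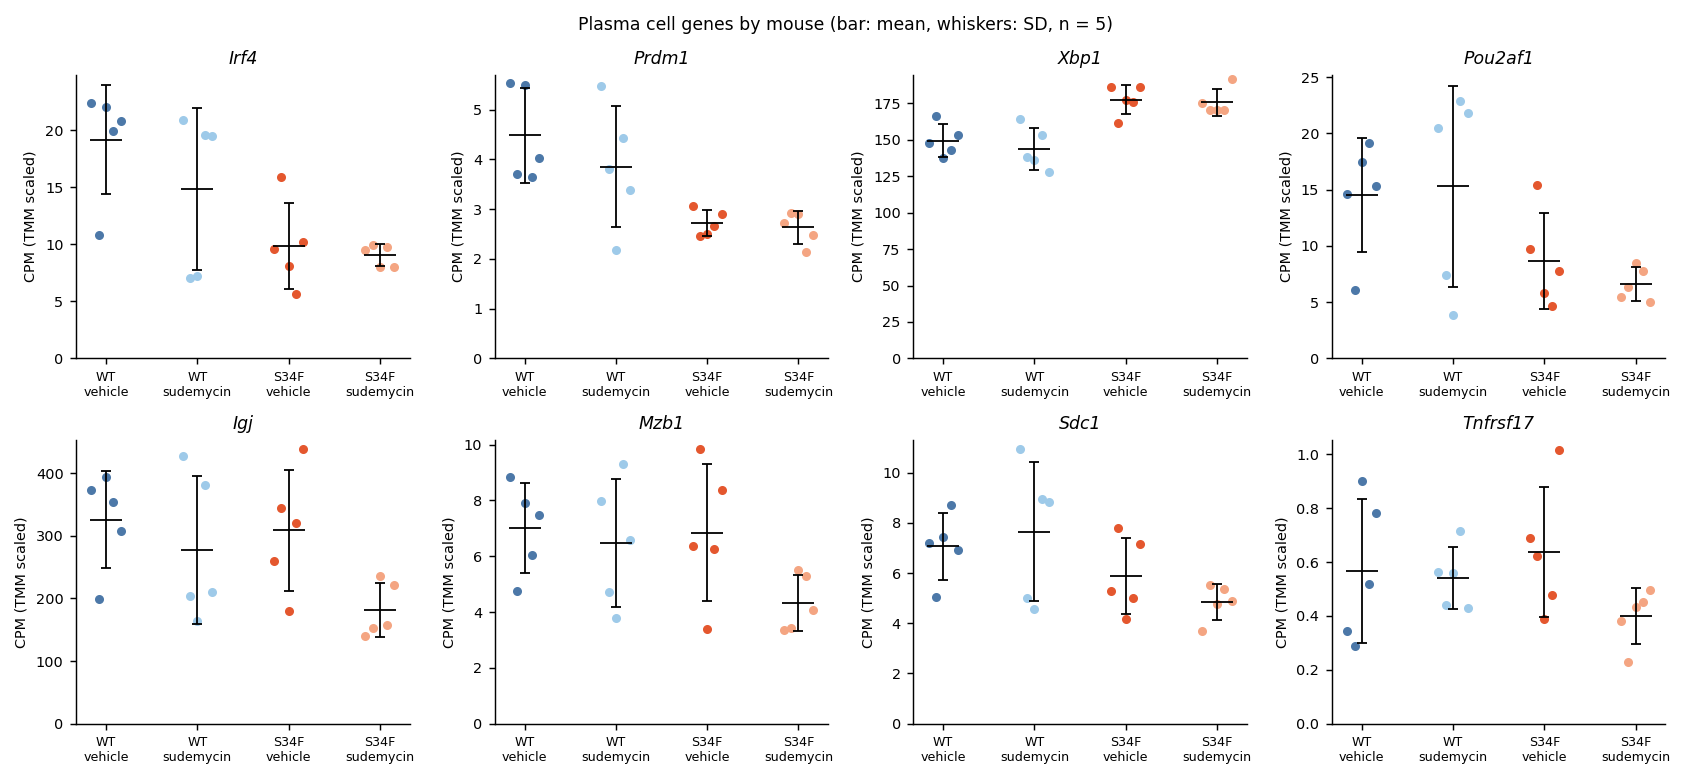
CPM (TMM scaled, y axis from 0) of the 8 plasma cell genes in each of 5 mice of 4 groups, with the mean as a bar and the SD as whiskers. The means of Irf4 and Prdm1 were lower, and that of Xbp1 higher, in both U2AF1(S34F) groups than in the U2AF1(WT) groups. Some mice overlapped between genotypes for each of these genes. The mean of Igj was lowest in U2AF1(S34F) mice given sudemycin.

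The first comparison asked how the marrow of U2AF1(S34F) mice differed from that of U2AF1(WT) mice under vehicle. The regulators *Irf4* and *Prdm1* fell, *Xbp1* rose slightly, and the genes of the secreted product (*Igj*) and its assembly (*Mzb1*) showed no detectable difference. By edgeR, 3 of 8 genes passed FDR<10% over all genes tested, while 39.5% of all 14817 genes tested did so, so the share among the plasma cell genes was close to the background. Of the genes, 19.7% passed as higher and 19.8% as lower.

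*Irf4*, a transcription factor needed for plasma cell formation, had 22.4, 10.8, 22.02, 19.97 and 20.8 CPM in the U2AF1(WT) vehicle mice and 9.56, 15.9, 8.12, 5.60 and 10.2 CPM in the U2AF1(S34F) vehicle mice. One U2AF1(WT) mouse (10.8 CPM) lay among the U2AF1(S34F) values, and the groups overlapped. The log2 change was -0.97 (SE 0.26, edgeR FDR 0.016). In bulk marrow, fewer cells of a type and less RNA per cell cannot be told apart, which holds for this and all later changes.

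*Prdm1*, the repressor BLIMP-1, had 5.54, 3.71, 5.50, 3.65 and 4.04 CPM in U2AF1(WT) and 3.06, 2.45, 2.49, 2.65 and 2.91 CPM in U2AF1(S34F) mice under vehicle. Every U2AF1(S34F) mouse was below every U2AF1(WT) mouse, a separation that 20.2% of all genes tested showed. The log2 change was -0.73 (SE 0.17, edgeR FDR 0.0056).

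*Xbp1* had 148, 167, 137, 143 and 154 CPM in U2AF1(WT) and 186, 162, 178, 176 and 186 CPM in U2AF1(S34F) mice under vehicle. The groups overlapped only between 162 and 167 CPM, and *Xbp1* was 1.19-fold higher in U2AF1(S34F) mice (log2 change 0.24, SE 0.08, edgeR FDR 0.034). Its coefficient of variation was the smallest among the 8 genes in all 4 groups.

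The other 5 genes did not pass. *Pou2af1* had a log2 change of -0.76 (SE 0.36, edgeR FDR 0.13) and *Sdc1* one of -0.27 (SE 0.18, FDR 0.27). *Igj* had -0.09 with a 95% interval of -0.60 to 0.42, and *Mzb1* -0.05 with an interval of -0.57 to 0.47. *Tnfrsf17* had 0.16, with an interval of -0.58 to 0.89.

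Under sudemycin, the same comparison of genotypes brought more of the 8 genes past the threshold. *Pou2af1*, *Sdc1*, *Irf4*, *Mzb1* and *Prdm1* were lower in U2AF1(S34F) mice and *Xbp1* was higher, 6 of 8 genes against 36.8% of the 14677 genes tested (17.2% higher and 19.6% lower). This count rested on single mice: it was 1 without U2AF1(WT) sudemycin replicate 10 or U2AF1(S34F) sudemycin replicate 2, 2 without U2AF1(WT) replicate 6 or U2AF1(S34F) replicate 12, and 3 without U2AF1(S34F) replicate 6 or 10.

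*Pou2af1* had 20.5, 7.38, 3.88, 22.8 and 21.8 CPM in U2AF1(WT) mice given sudemycin and 5.43, 6.31, 8.50, 7.80 and 4.98 CPM in U2AF1(S34F) mice given sudemycin. The U2AF1(WT) mice fell into 3 high and 2 low values, and the 2 low ones (replicates 8 and 9) lay within or below the U2AF1(S34F) range. Its log2 change was -1.22 (SE 0.42, edgeR FDR 0.048), the largest among the 8 genes in this comparison.

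*Irf4* had 20.9, 7.08, 7.21, 19.6 and 19.5 CPM in U2AF1(WT) and 9.47, 9.99, 8.05, 9.78 and 8.04 CPM in U2AF1(S34F) mice given sudemycin. The same 2 U2AF1(WT) mice were low, below every U2AF1(S34F) mouse, and the other 3 lay at 19.5 to 20.9 CPM. The log2 change was -0.72 (SE 0.30, edgeR FDR 0.091).

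*Xbp1* had 164, 138, 136, 153 and 128 CPM in U2AF1(WT) and 176, 171, 171, 171 and 192 CPM in U2AF1(S34F) mice given sudemycin. The groups did not overlap, as for 19.7% of all genes tested, and the log2 change was 0.28 (SE 0.08, edgeR FDR 0.025). *Sdc1*, which encodes the surface proteoglycan CD138, spanned 4.56 to 10.9 CPM in U2AF1(WT) and 3.71 to 5.51 CPM in U2AF1(S34F) mice, with a log2 change of -0.66 (SE 0.24, edgeR FDR 0.054). *Mzb1* (log2 change -0.59, SE 0.25, edgeR FDR 0.097) and *Prdm1* (-0.55, SE 0.22, FDR 0.083) were just inside the threshold, and *Igj* (-0.62, SE 0.27, FDR 0.105) just outside it. *Tnfrsf17* had -0.41 (SE 0.26, FDR 0.25).

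The next comparisons asked what sudemycin did within each genotype. In U2AF1(WT) mice, 453 of 14763 genes passed (3.07%, of which 1.18% of genes as higher and 1.89% as lower), the groups did not overlap for 4.15%, and none of the 8 plasma cell genes did, nor had any an unadjusted p under 0.05. DESeq2 called none of the 8 either. *Xbp1* had the narrowest 95% interval, -0.27 to 0.13 around a log2 change of -0.07. *Igj* had 374, 199, 394, 354 and 308 CPM under vehicle and 428, 205, 164, 381 and 210 CPM under sudemycin in these mice. The treated mice spanned a range that enclosed the vehicle mice, and the log2 change of -0.25 (SE 0.28, edgeR FDR 0.77) was smaller than its error. For *Pou2af1* and *Irf4* the same 2 treated mice were low, and the intervals of their log2 changes ran from -1.005 to 1.13 and from -1.12 to 0.36.

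In U2AF1(S34F) mice, 1 of the 8 genes, *Igj*, fell with sudemycin, where 10.8% of 14714 genes passed (4.94% as higher and 5.85% as lower) and the groups did not overlap for 7.81%. *Igj* had 259, 345, 180, 321 and 438 CPM under vehicle and 140, 153, 236, 158 and 221 CPM under sudemycin. All treated mice but 2 (236 and 221 CPM) were below the lowest vehicle mouse. The log2 change was -0.77 (SE 0.23, edgeR FDR 0.073), and the mean fell to 0.587 of that under vehicle. The call was lost without vehicle replicate 3, 7 or 11 or sudemycin replicate 2, 6 or 10 (edgeR FDR up to 0.158), and *Mzb1* joined it without vehicle replicate 5.

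All 8 genes had a negative log2 change with sudemycin in U2AF1(S34F) mice. *Mzb1* had 6.37, 9.85, 3.38, 6.26 and 8.38 CPM under vehicle and 3.36, 3.44, 5.49, 5.28 and 4.07 CPM under sudemycin, a log2 change of -0.66 (SE 0.25, edgeR FDR 0.14). *Tnfrsf17*, the BCMA receptor, had a log2 change of -0.63 (SE 0.28, FDR 0.20). The 3 genes that differed between genotypes under vehicle did not pass here: *Irf4* had -0.12 (SE 0.21, edgeR FDR 0.78), *Prdm1* -0.04 (SE 0.14, FDR 0.89) and *Xbp1* -0.02 (SE 0.06, FDR 0.90).

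Whether sudemycin acted differently in the genotypes was tested as an interaction over all 20 mice. None of the 8 genes passed by edgeR or DESeq2, 0 had an unadjusted edgeR p under 0.05, and 2 of 15392 genes passed (0.013%). The interaction for *Igj* was -0.54 (SE 0.38, edgeR FDR 0.81) and for *Mzb1* -0.54 (SE 0.37, FDR 0.80). The fall of *Igj* in U2AF1(S34F) mice is thus not shown to differ from its change in U2AF1(WT) mice.

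**Figure D2:**
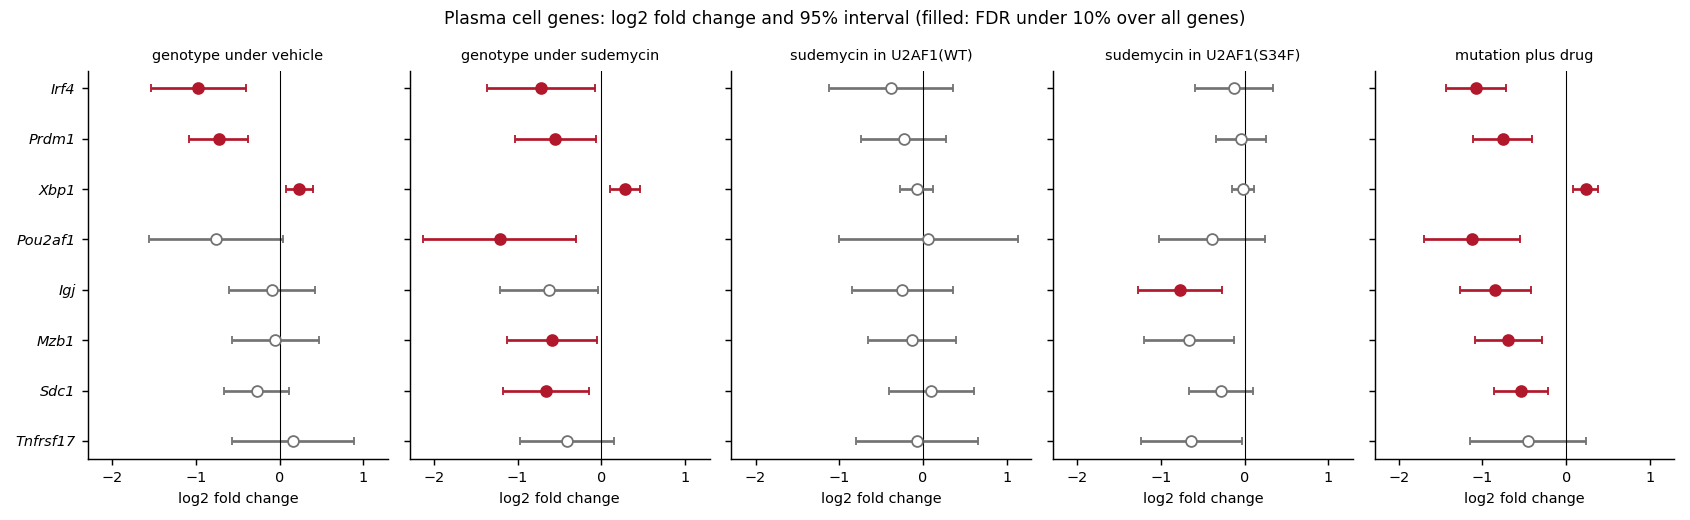
Log2 fold change (x axis) of each plasma cell gene with its 95% interval in 5 comparisons, with filled red points for FDR<10% over all genes tested. No gene passed for sudemycin in U2AF1(WT) mice, 1 passed in U2AF1(S34F) mice, and 7 passed where both mutation and drug differed. The shares of all genes tested that passed in these comparisons were 3.07%, 10.8% and 50.2%, in the same order.

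Mice with both mutation and drug were last compared with mice with neither. Here 7 of 8 genes passed, 6 lower and *Xbp1* higher, where 50.2% of 14761 genes passed (25.1% in each direction). The 7 calls were made whichever mouse was left out. *Irf4* had the smallest FDR: its U2AF1(WT) vehicle values (given above, 10.8 to 22.4 CPM) were all above those of U2AF1(S34F) mice given sudemycin (8.04 to 9.99 CPM), with a log2 change of -1.08 (SE 0.17, edgeR FDR 0.000345). *Prdm1* (-0.76, SE 0.16) and *Xbp1* (0.23, SE 0.07) also did not overlap between these groups, as for 24.2% of all genes. *Pou2af1* fell by 1.13 on the log2 scale (SE 0.26), *Igj* by 0.85 (SE 0.20), *Mzb1* by 0.69 (SE 0.19) and *Sdc1* by 0.54 (SE 0.15), all with an edgeR FDR under the threshold. *Tnfrsf17* had -0.46 (SE 0.32, FDR 0.27). The median change of the 8 genes was -0.73, beside -0.003 for all genes tested. These comparisons share groups of mice, so they are not independent of one another.

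Immunoglobulin constant regions are the main product of plasma cells, and 6 of the 14 listed genes were in the count table. In U2AF1(S34F) mice compared with U2AF1(WT) mice under vehicle, *Ighm*, the heavy chain of IgM that B cells also make, rose (log2 change 0.68, SE 0.24, edgeR FDR 0.049), and none of the other 5 passed. Under sudemycin, *Igkc*, the kappa light chain (log2 change -0.79, SE 0.27, edgeR FDR 0.048), and *Ighg2c*, an IgG heavy chain (-1.45, SE 0.34, FDR 0.0096), fell in U2AF1(S34F) mice. None passed with sudemycin in U2AF1(WT) mice. With sudemycin in U2AF1(S34F) mice, *Ighm* fell by 0.83 (SE 0.23, FDR 0.057).

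*Ighm* had 365, 759, 295, 599 and 643 CPM in U2AF1(S34F) mice under vehicle and 264, 333, 329.5, 271 and 297 CPM under sudemycin. The vehicle mice were spread widely, 1 of them lay within the treated range, and the treated mice were close together. With both mutation and drug, *Igkc* (-0.77), *Iglc3* (-0.95), *Ighg2c* (-1.03) and *Ighg1* (-1.60) fell, while *Ighm* (-0.13, FDR 0.39) and *Iglc2* (-0.77, FDR 0.12) did not pass. *Ighg1* was set by 1 mouse under vehicle: U2AF1(WT) replicate 4 had 84.8 CPM and the other 4 had 12.2 to 21.2 CPM. Immunoglobulin segments share closely related sequence, and how reads that match several of them were counted is not given in the sources used here.

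**Figure D3:**
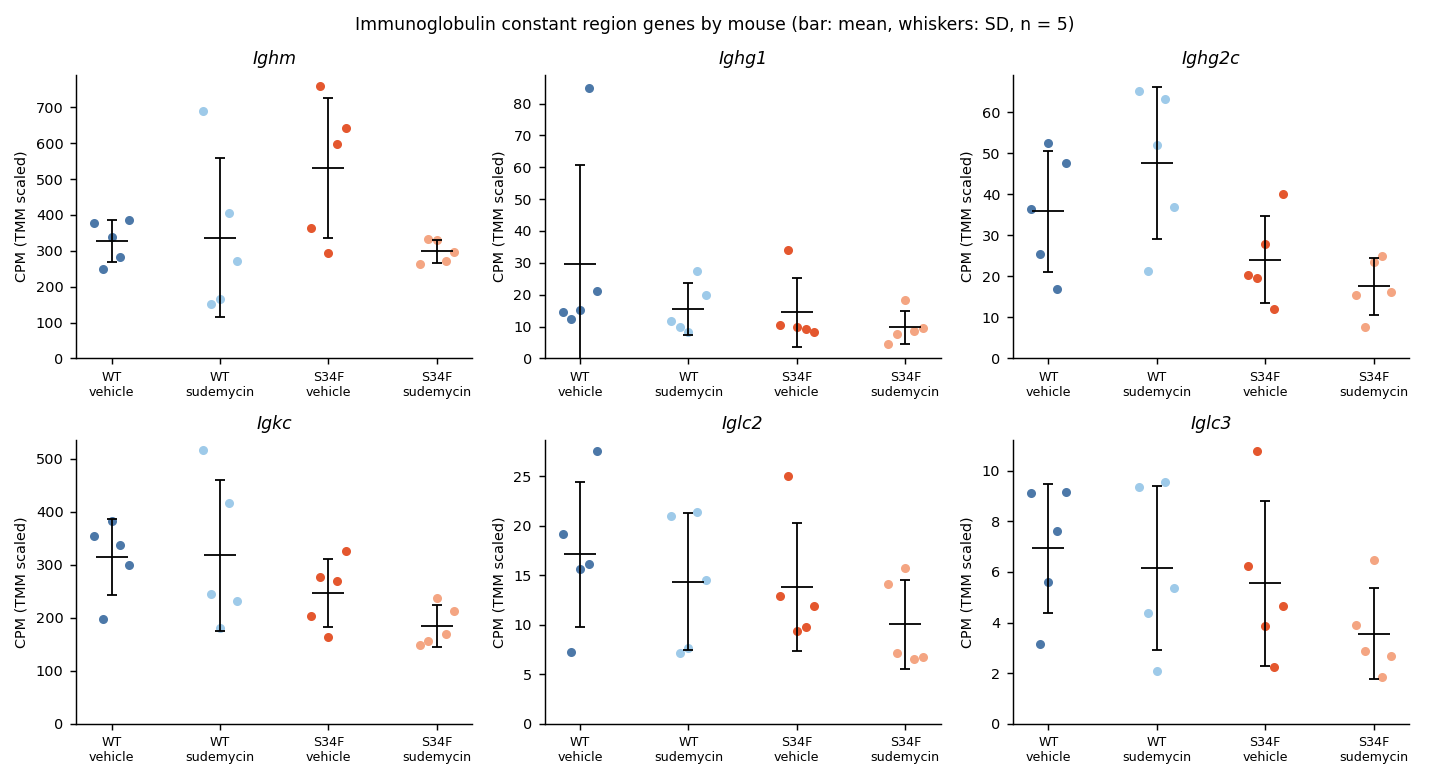
CPM (TMM scaled, y axis from 0) of the 6 immunoglobulin constant region genes in each of 5 mice of 4 groups, with the mean as a bar and the SD as whiskers. Ighm was spread widely in U2AF1(S34F) vehicle mice and close together at 264 to 333 CPM under sudemycin, and 1 U2AF1(WT) vehicle mouse stood apart for Ighg1 at 84.8 CPM.

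The 40 genes of ER and antibody secretion machinery did not follow the plasma cell genes downward. With both mutation and drug, 20 rose, 6 fell and 14 did not pass, where 25.1% of all genes rose and 25.1% fell, and the list had a median log2 change of 0.21. *Derl3*, an ER-associated degradation factor that is high in secretory cells, was among those that fell (-0.999, SE 0.25, edgeR FDR 0.0062), as was *Dnajb9*, an ER co-chaperone (-1.08, SE 0.12, FDR 2.95e-05). *Sec61g*, a subunit of the protein channel of the ER membrane, rose by 0.70 (SE 0.22). Between genotypes under vehicle, 8 of the 40 rose and 5 fell, where 19.7% of all genes rose and 19.8% fell, so these counts were near or below the background. Under sudemycin 19 rose and 4 fell, where 17.2% of all genes rose and 19.6% fell. With sudemycin in U2AF1(WT) mice 2 of them fell, *Dnajb9* (-0.73, SE 0.11, FDR 0.0042) and *Ern1*, the gene of IRE1 itself (-0.36, SE 0.08, FDR 0.0435). In U2AF1(S34F) mice, *Hyou1* (0.29), *Ssr2* (0.25) and *Dnajb11* (0.16) rose with sudemycin and *Herpud1* fell (-0.16). Of all genes tested, 3.07% passed with sudemycin in U2AF1(WT) and 10.8% in U2AF1(S34F) mice.

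Of 18 further plasma cell genes, 1 rose and 5 fell with both mutation and drug, where 25.1% of all genes rose and 25.1% fell. Both directions together were fewer than the background of 50.2% of all genes, but the falls alone were not. *Cd38*, a surface enzyme of many blood cells and no mark of plasma cells alone, rose by 0.80 on the log2 scale (SE 0.26, edgeR FDR 0.029). *Eaf2*, a partner of the elongation factor ELL (-0.79), and *Cd28* (-0.52) fell. *Cd28* stands also in the T cell list. Between genotypes 2 genes passed in each setting, fewer than the background of 39.5% of all genes under vehicle and 36.8% under sudemycin. *Tram2* (-0.76) and *Cd38* (-0.65) fell under vehicle. Under sudemycin *Pim2* (-0.62), a survival kinase, fell and *Cd93* (0.51), a receptor of long-lived plasma cells, rose. *Cd38* alone passed with sudemycin in U2AF1(WT) mice (log2 change 1.46, SE 0.38, edgeR FDR 0.0999, just inside the threshold), where 3.07% of all genes passed. In U2AF1(S34F) mice 2 rose and 4 fell with sudemycin, where 4.94% of all genes rose and 5.85% fell. The largest of these changes were *Cd38* (1.43, SE 0.19, edgeR FDR 0.0020), *Cd27* (-0.60) and *Tram2* (0.50).

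Of 18 niche survival factors and receptors, 16 were tested with both mutation and drug. Of these, 2 rose and 6 fell, where 25.1% of all genes rose and 25.1% fell. Only both directions together were close to the background, 50.2% of all genes. *Tnfrsf13c*, the BAFF receptor of B cells (-1.35), and *Mcl1*, an anti-apoptotic protein on which plasma cells depend and which most blood cells use (-0.72), fell, and *Vcam1*, an adhesion molecule of stromal cells and macrophages that is also in the macrophage list, rose (0.60). Between genotypes under vehicle 1 of 16 rose and 6 fell, where 19.7% of all genes rose and 19.8% fell. Of these, *Cd80* (-0.81), *Vcam1* (0.71) and *Mcl1* (-0.67) changed the most. Under sudemycin 3 of 15 rose and 5 fell, where 17.2% of all genes rose and 19.6% fell. Here *Tnfrsf13c* (-1.46), *Itgal* (-0.66) and *Cd80* (-0.62) changed the most. With sudemycin in U2AF1(WT) mice *Il6*, a plasma cell growth factor, fell (-1.87, SE 0.44, edgeR FDR 0.0525) and the other 15 did not pass. In U2AF1(S34F) mice *Cd80* (0.36) and *Il6ra* (0.33) rose with sudemycin and none fell. Of all genes tested, 3.07% passed with sudemycin in U2AF1(WT) and 10.8% in U2AF1(S34F) mice.

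Genes of other blood cells moved beside the plasma cell genes. With both mutation and drug, all 21 B cell identity genes tested fell (median log2 change -1.34), among them *Pax5* (-1.74), *Spib* (-1.67) and *Blk* (-1.63). All 12 T cell markers fell as well (median -0.98), led by *Cd3e* (-1.56), and 7 of 9 plasmacytoid dendritic cell markers fell, led by *Cd300c* (-2.46). Of 9 pre-B and pro-B markers 7 fell, led by *Rag1* (-3.51), *Igll1* (-2.85) and *Vpreb1* (-2.34), and 2 rose, *Bst1* (0.44) and *Erg* (0.27). Of 10 neutrophil markers, 5 rose and none fell, led by *S100a8* (1.21, SE 0.20), while 2 of 10 monocyte and macrophage markers rose and 3 fell, and 3 of 8 erythroid markers fell. Of all genes tested, 25.1% rose and 25.1% fell in this comparison.

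Between genotypes under vehicle, 4 of 21 B cell genes and 3 of 12 T cell markers were lower and none higher, shares near the 19.8% of all genes that were lower, and 5 of 10 neutrophil markers were higher, where 19.7% of all genes were. Under sudemycin, 13 of 21 B cell genes and 9 of 12 T cell markers were lower, where 19.6% of all genes were, and 3 of 10 neutrophil markers were higher, where 17.2% were. No gene of these 3 lists passed with sudemycin in U2AF1(WT) mice, where 3.07% of all genes did. In U2AF1(S34F) mice 1 B cell gene, *Cd72* (-0.85), and 3 T cell markers, *Cd3g* (-0.83), *Lck* (-0.70) and *Cd3d* (-0.70), fell with sudemycin, and no neutrophil marker passed. There 5.85% of all genes fell and 4.94% rose.

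Of 9 pre-B and pro-B markers tested, 3 fell and 1 rose with sudemycin in U2AF1(WT) mice, where 1.89% of all genes fell and 1.18% rose. *Igll1* (-2.46) and *Vpreb1* (-2.23), which encode the surrogate light chain, and *Dntt* (-1.64), which adds bases to rearranging receptor genes, fell, and *Bst1* rose (0.46). In U2AF1(S34F) mice 4 of 9 fell and 1 rose, where 5.85% of all genes fell and 4.94% rose. *Rag1* (-2.98), *Igll1* (-2.10), *Dntt* (-1.61) and *Vpreb3* (-1.31) fell there, and *Bst1* rose (0.60).

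The summed level of the 22 B cell genes was 494 to 843 CPM in U2AF1(WT) vehicle, 544 to 848 in U2AF1(WT) sudemycin, 392 to 715 in U2AF1(S34F) vehicle and 420 to 486 in U2AF1(S34F) sudemycin mice. The 12 T cell markers summed to 32.1 to 46.2, 22.96 to 53.9, 28.3 to 51.0 and 22.8 to 27.3 CPM in the same order of groups. The 10 neutrophil markers summed to 63985 to 72756, 59717 to 104244, 86531 to 141008 and 73982 to 122151 CPM. No B cell, T cell or neutrophil marker was at 0 in all mice of a group. The part of these cell types in the changes of the plasma cell genes was not tested.

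Which genes the 8 varied with from mouse to mouse was then described over the 20 mice, as deviations of log2 CPM from the group means, which leaves out every difference between groups. The points share library and depth, and the correlations are given as a description. *Irf4* and *Pou2af1* varied together (Pearson r 0.92, Spearman rho 0.83) and with the mean of the B cell identity genes (r 0.93 and 0.92). The gene most like *Irf4* was *Ebf1*, an early B cell transcription factor (r 0.98), and that most like *Pou2af1* was *St8sia6*, a sialyltransferase (r 0.97). Both followed the T cell markers too (r 0.88 and 0.89) and ran against the neutrophil markers (r -0.70 and -0.59).

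*Igj* varied with *Igkc* (r 0.99), and next with *Derl3* (r 0.84), *Mzb1* (r 0.84) and *Reln* (r 0.83). Its r with the B cell identity genes was only 0.40, and with the neutrophil markers 0.06. With the mean of the 6 immunoglobulin constant regions, r was 0.84 for *Igj*, *Mzb1* and *Pou2af1*, 0.81 for *Irf4* and 0.80 for *Sdc1*, so that list did not set these genes apart from one another. *Mzb1* and *Sdc1* had r of 0.58 and 0.76 with the B cell genes.

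*Xbp1* had r of -0.14 to 0.31 with the other 7 genes. Among the lists it was most like the ER machinery (r 0.61), while the other 7 had r of -0.26 to 0.01 with that list. The gene most like it was *Snrpg*, a core protein of the spliceosome (r 0.79). *Prdm1* had r of 0.64 with *Igj* and 0.53 with *Pou2af1*, and *Tnfrsf17*, with its low counts, reached no r above 0.57 with any other member.

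The 10 genes most like the 8 as a group, among 12219 genes with at least 1 CPM, were *Reln* (r 0.92), *Igkc* (0.89), *Rab30* (0.89), *Dennd5b* (0.88), *Nipa1* (0.87), *Lax1* (0.87), *Diras2* (0.86), *Enpp1* (0.86), *Slc22a23* (0.86) and 6230427J02Rik (0.86). *Reln* encodes the secreted protein reelin, *Lax1* a signalling adaptor of lymphocytes and *Enpp1* a surface phosphodiesterase.

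**Figure D4:**
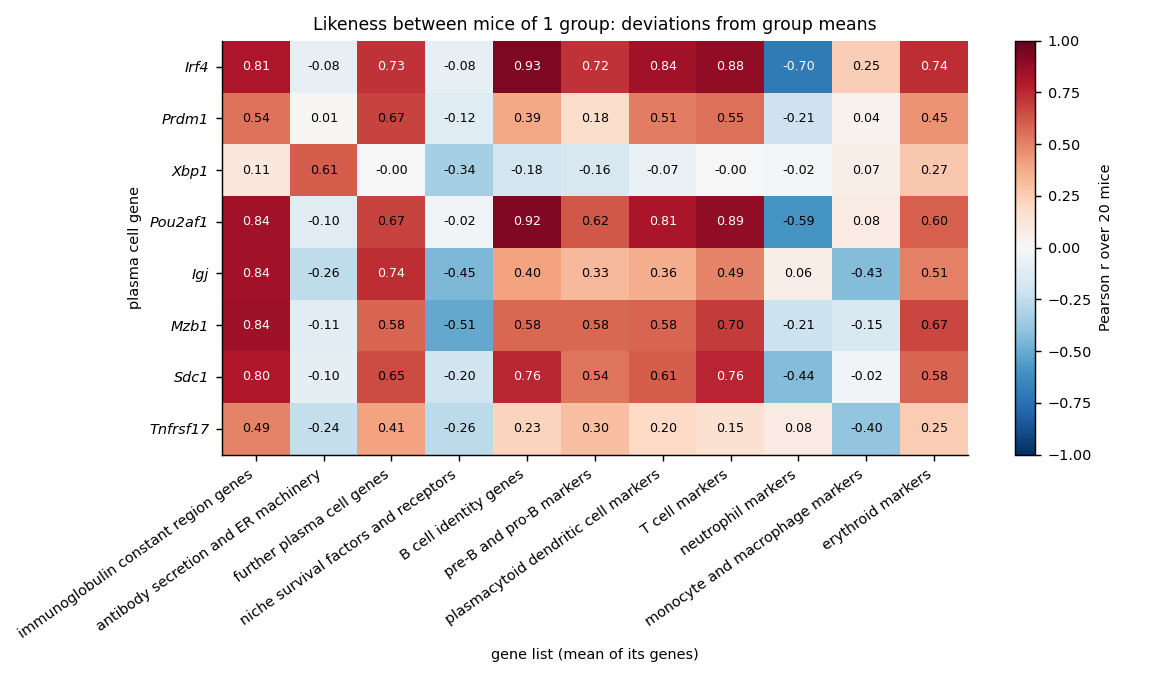
Pearson r over 20 mice, as deviations from group means, between each plasma cell gene (rows) and the mean of each gene list (columns), on a colour scale from -1 (blue) to 1 (red). Irf4 and Pou2af1 were most like the B cell identity genes, Igj, Mzb1 and Sdc1 most like the immunoglobulin constant regions, and Xbp1 alone was most like the ER machinery.

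Splicing of the members was read from junction counts, with the share of a junction among all reads that use its donor or its acceptor. Between genotypes under sudemycin, 1 of 78 member shares tested passed FDR<10% and a difference of 1 percentage point, where 1.01% of 407031 shares did. That count was close to the background. The share that passed was the annotated last junction of *Xbp1*. In the other 4 comparisons none of 77 to 91 member shares passed by edgeR, where 0.937% of all shares did for the genotypes under vehicle, 0.278% for sudemycin in U2AF1(WT) mice, 0.522% for sudemycin in U2AF1(S34F) mice and 1.81% for both together. Unadjusted p-values under 0.05 were no more frequent among member shares than among all shares in these 4 comparisons: 7 of 89 beside 37159 of 404417 for the genotypes under vehicle, 1 of 91 beside 28134 of 383677 and 4 of 81 beside 31021 of 421333 for sudemycin in U2AF1(WT) and in U2AF1(S34F) mice, and 8 of 77 beside 44653 of 415891 for both together. Between genotypes under sudemycin there were 9 of 78 beside 36810 of 407031. By limma on the shares, 0 member shares passed in any comparison, with 0 to 10 at an unadjusted p under 0.05.

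The annotated last acceptor of *Xbp1*, with T before its AG, took 92.7%, 97.2%, 97.1%, 97.7% and 94.98% of the reads of the exon 4 donor in U2AF1(WT) vehicle mice and 92.7%, 90.2%, 92.4%, 89.3% and 94.8% in U2AF1(S34F) vehicle mice. Under sudemycin it took 98.0%, 97.4%, 95.50%, 97.6% and 99.5% in U2AF1(WT) and 94.5%, 95.47%, 94.1%, 94.4% and 95.05% in U2AF1(S34F) mice. The groups overlapped under vehicle and did not under sudemycin, where the lowest U2AF1(WT) mouse and the highest U2AF1(S34F) mouse were nearly equal. How often groups did not overlap among all junction shares was not counted, so this separation has no background beside it. The difference was -2.91 points under sudemycin (edgeR FDR 0.045, limma FDR 0.31) and -4.08 points under vehicle (edgeR FDR 0.105, limma FDR 0.66). Leaving out each mouse in turn, the difference under sudemycin was -3.43 to -2.44 points with an edgeR FDR of at most 0.082. The change with sudemycin did not pass in U2AF1(S34F) mice (2.83 points, edgeR FDR 0.23) or in U2AF1(WT) mice (1.65 points, FDR 0.65).

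The acceptor 145 bases into exon 5, with C before its AG, made up most of the difference under sudemycin. It had 0, 0, 0, 21 and 0 reads in U2AF1(WT) and 21, 23, 32, 18 and 33 reads in U2AF1(S34F) mice given sudemycin, or 0.371% ± 0.830 and 2.31% ± 0.798 of the donor's reads (SD, n = 5). Reads were thus seen in 1 of 5 and 5 of 5 mice, and the edgeR FDR was 0.1005, just outside the threshold. How often presence differed so among all junctions was not counted. Under vehicle it had 26, 0, 0, 0 and 16 reads in U2AF1(WT) and 19, 31, 37, 51 and 2 reads in U2AF1(S34F) mice (0.830% and 2.44%, FDR 0.50).

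The acceptor 67 bases into exon 5, also with C before its AG, took 2.72% ± 0.939 in U2AF1(WT) and 3.65% ± 0.327 in U2AF1(S34F) mice under vehicle, and 1.90% ± 1.56 and 2.29% ± 0.815 under sudemycin, differences that did not pass (FDR 0.62 and 0.65). Use of either inner acceptor removes a number of bases from exon 5 that is no multiple of 3, so the reading frame after it changes. Both lie before the end of the coding sequence in exon 5 (chr11, 5424904).

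**Figure D5:**
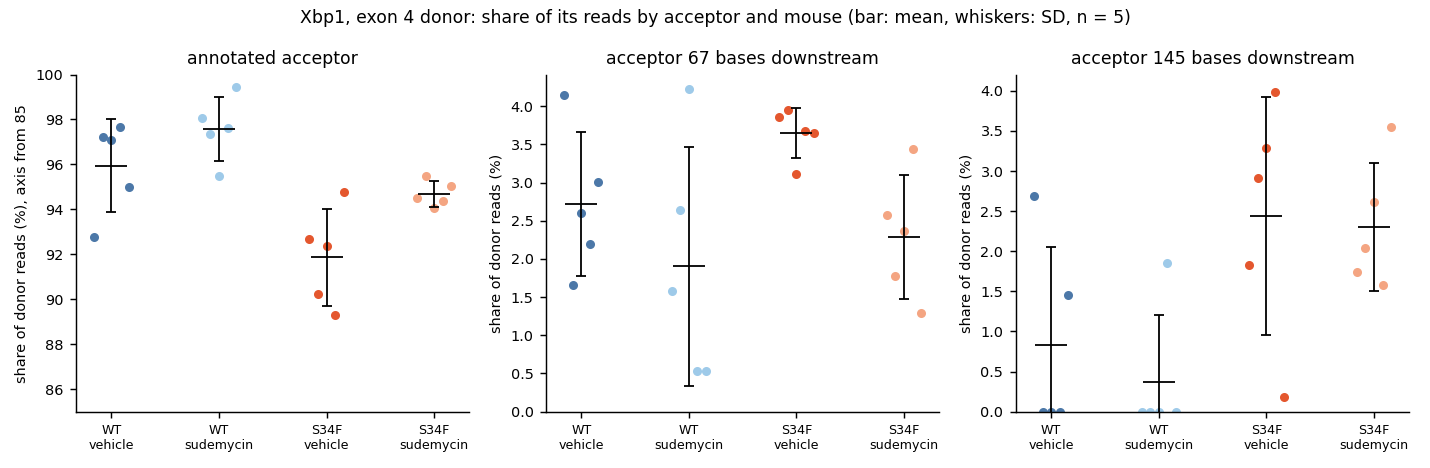
Share of the reads of the Xbp1 exon 4 donor (y axis, percent, cut to 85 to 100 in the left panel and from 0 in the others) that went to the annotated acceptor and to 2 acceptors inside exon 5, in each of 5 mice of 4 groups with the mean as a bar and the SD as whiskers. The acceptor 145 bases downstream had reads in all 10 U2AF1(S34F) mice and in 3 of 10 U2AF1(WT) mice. Its share did not pass between genotypes under vehicle (edgeR FDR 0.50) or under sudemycin (edgeR FDR 0.1005). How often presence differed so among all junctions was not counted.

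The IRE1-dependent form of *Xbp1* could not be measured. No junction across the 26 bases was listed, and the shortest intron in the whole junction table was 70 bases, so a removal of 26 bases would not be seen. A junction from exon 3 to the first base after the 26-base stretch had 39, 46, 80 and 62 reads in U2AF1(WT) vehicle, U2AF1(WT) sudemycin, U2AF1(S34F) vehicle and U2AF1(S34F) sudemycin mice together, or 0.908% to 2.38% of the exon 3 donor's reads. Its share did not differ by the test in any comparison (edgeR FDR of at least 0.59). The remaining junctions with more than 1% joined neighbouring exons as annotated, with mean shares of 95.1% or more in every group.

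Outside *Xbp1*, unannotated junctions were rare in the abundant member *Igj*, at 0.0205% to 0.0325% of its junction reads in the 4 groups. The other members had between 7 and 607 junction reads per mouse, which leaves small changes in their splicing undetectable at this depth. An annotated *Irf4* junction (chr13, 30844648 to 30845314), named after its values were seen, differed more in points than those of *Xbp1* but did not pass. Under vehicle it took 53.7% of its donor's reads in U2AF1(WT) and 79.35% in U2AF1(S34F) mice (edgeR FDR 0.197). This donor had a mean of only 44.8 reads per mouse there. Its other annotated acceptor (30845317) took 44.1% and 20.65% (edgeR FDR 0.256). Under sudemycin the named junction took 48.9% and 66.2% (edgeR FDR 0.63). *Irf4* had 1.11% to 3.49% unannotated reads, *Pou2af1* 0.130% to 2.84% and *Mzb1* 0.253% to 0.925% (group means).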

How the data were processed

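RNA came from whole bone marrow of 20 mice and was depleted of ribosomal RNA before stranded sequencing. Per the labels, the authors aligned reads to mm9 with TopHat (version 2.0.8), and they deposited raw read counts per gene and read counts per splice junction. The counting program is not given in the sources used here. Counts were used as deposited, with no unassigned rows.

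Each comparison was fitted on its own 2 groups with edgeR 4.0.16 (quasi-likelihood test, filterByExpr, TMM, prior count 2; R 4.3.3), and the interaction on all mice. P-values were adjusted by Benjamini-Hochberg over all genes tested, and FDR<10% was called. CPM were computed from the counts. Junction shares were tested with edgeR on junction reads against the other reads of the same donor or acceptor (1 term per mouse, dispersion 0 with quasi-likelihood, mean of at least 10 reads, difference over 1 percentage point). DESeq2 1.42.0 and limma 3.58.1 were alternatives, and the procedures were tested on simulated data. The simulated junction shares changed by far more than those of *Xbp1*, so they do not show how the junction test handles small changes. Likeness used log2(CPM + 1) and genes of at least 1 CPM. Sequences, exon lengths and gene symbols came from the mm9 genome with its GENCODE annotation. From each list, at most the 3 called genes with the largest change in a comparison were eligible to be named, and not all are. Further genes that complete a small count were named after their values were seen. The members and the 11 lists were chosen with earlier results of these data known. Labels do not say whether equal replicate numbers pair mice. P-values measure the spread between these recipient mice. As donor marrow was pooled and recipients of a genotype may share a pool, they do not measure the spread between donors.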

Additional observations from a re-analysis of the deposited data

Results flagged for a closer look

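A sample was looked at again where, in a group of 5 mice, its gap to the nearest other mouse exceeded 0.71 of the group's range. This held for 10 of 96 groups tested. Chance alone gives about 1 in 20 only where values are spread roughly normally. Shares that sit at 0% or 100% in all mice but 1 are always flagged, so no excess can be read from this count. For the plasma cell genes it was the U2AF1(S34F) sudemycin mouse with 191.7 CPM of *Xbp1* and the U2AF1(WT) vehicle mouse with 10.8 CPM of *Irf4*. For the constant regions it was a U2AF1(WT) vehicle mouse with 84.8 CPM of *Ighg1* and U2AF1(S34F) vehicle mice with 33.96 CPM of *Ighg1* and 25.1 CPM of *Iglc2*. For *Xbp1* junctions, the first junction (chr11, 5421203 to 5421926) took 99.86%, 99.85% and 99.87% of its acceptor's reads in 1 U2AF1(WT) sudemycin, 1 U2AF1(S34F) vehicle and 1 U2AF1(S34F) sudemycin mouse. The annotated last junction took 99.17% of its acceptor's reads in 1 U2AF1(S34F) vehicle mouse, and the acceptor 145 bases into exon 5 took 1.86% of its donor's reads in 1 U2AF1(WT) sudemycin mouse.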

How the results depend on the processing

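Leaving out 1 mouse at a time, 3 to 4 of the plasma cell genes passed between genotypes under vehicle, 1 to 7 under sudemycin, 0 with sudemycin in U2AF1(WT), 0 to 2 in U2AF1(S34F), 7 with both mutation and drug and 0 for the interaction. All genes called ranged, in the same order, from 4817 to 6943, 4363 to 5796, 191 to 730, 913 to 1736, 6421 to 8373 and 2 to 87. Member junction shares refitted by limma gave 0 in every comparison, as limma did on all mice, so that refit says nothing about stability. Refitted by edgeR between genotypes under sudemycin, added after seeing the data, 1 to 2 member shares passed, the annotated last junction of *Xbp1* in all 10 refits. Between genotypes under sudemycin, 2 plasma cell genes passed with no filter on low counts and 2 at FDR<5%. With sudemycin in U2AF1(S34F), 2 passed by DESeq2, and 0 with no filter, at FDR<5% or in 1 model of all mice. All genes called with sudemycin were 819 by DESeq2, 243 at FDR<5% and 1072 in 1 model of all mice for U2AF1(WT), and 826 at FDR<5% and 788 in 1 model for U2AF1(S34F). The interaction gave 116 genes by DESeq2, 10 with no filter and 1 among autosomal genes. Member junction shares called between genotypes under sudemycin were 0 by limma and 2 with a mean of at least 20 reads, the second being the *Xbp1* acceptor 145 bases into exon 5 (edgeR FDR 0.0983). The cause was not tested.

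Between mice of equal replicate number, correlations of deviations were 0.138, 0.164 and -0.125 under vehicle and 0.414, -0.199, -0.077 and 0.301 under sudemycin. So few pairs cannot show whether equal numbers pair the mice. With a replicate block, which also left out mice without a shared number, 5 plasma cell genes passed between genotypes under vehicle and 2 under sudemycin; in the same mice without the block 3 and 4 passed. *Tnfrsf17* between genotypes under vehicle turned to -0.22 with the block and to -0.25 in the same mice without it, the latter setting added after seeing the data.

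Without single mice, uncalled changes near 0 turned sign. Between genotypes under vehicle, *Mzb1* ran from -0.20 to 0.12, *Igj* from -0.25 to 0.051 and *Tnfrsf17* from -0.062 to 0.37. With sudemycin in U2AF1(WT), *Pou2af1* ran from -0.13 to 0.31, *Tnfrsf17* from -0.23 to 0.14, *Sdc1* from -0.068 to 0.24 and *Mzb1* from -0.29 to 0.014. With sudemycin in U2AF1(S34F), *Irf4* ran from -0.27 to 0.11, *Prdm1* from -0.086 to 0.021 and *Xbp1* from -0.052 to 6.25e-06, and the interaction of *Xbp1* from -0.00067 to 0.092.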
